A study of Ciona robusta with 12 samples.

Results

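Zic-r.b is a zinc-finger transcription factor gene of the tunicate Ciona robusta that is present as several near-identical copies. The family was taken here as the 5 gene models KH.S816.1, KH.S816.2, KH.S816.4, KH.L59.1 and KH.L59.12, chosen by identifier. All 5 were found among the 15284 gene models of each deposited table, and all 5 passed the filter on low values at both stages. The transcripts were measured by RNA sequencing of whole embryos from dechorionated eggs, each library being made from the RNA of 300 embryos. U0126 (4 mM, as labelled; the unit could not be checked) or its carrier DMSO was added at the 32-cell stage. RNA was taken later, at 64 or at 112 cells. The groups are thus U0126 and DMSO at 64 cells and U0126 and DMSO at 112 cells, with 3 libraries in each. The study calls its replicates biological, and the labels name no transgene, clutch or collection day.

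Zic-r.b, earlier called ZicL, belongs to the Zic family of DNA-binding proteins. It is switched on in the embryo's own genome during early cleavage, mainly in vegetal blastomeres that give rise to notochord, muscle and nerve cord. In the notochord lineage it activates Brachyury, the T-box gene that determines notochord fate. U0126 inhibits MEK, the kinase that activates ERK downstream of FGF receptors, and FGF signalling through this pathway induces notochord and parts of the nervous system in ascidians. The comparisons therefore ask whether transcript levels of this notochord regulator at each stage depend on MEK activity after the 32-cell stage.

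Reads over genes totalled 10623872 to 15956670 per library. The 5 copies together took 2477 to 6245 reads per library, and the copy with the fewest reads in any library, KH.L59.12, had 270 to 898. Because the copies are near-identical and the read counter is not given in the sources used here, reads may have been split, shared or dropped between them, so the sum is given beside each copy. Levels of different copies are not ranked, because no transcript lengths were used. In whole embryos, fewer cells expressing the family and less RNA per cell cannot be told apart. DMSO replicate 3 at 112 cells stood apart: 210 of 11650 genes were at least 4-fold below all 11 other libraries in it, against 0 to 4 genes in any other library.

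At the 64-cell stage the summed Zic-r.b level was close in U0126 and DMSO embryos. It was 4231, 3618 and 3857 normalized counts in U0126 replicates 1 to 3, against 3922, 4698 and 3996 in the DMSO replicates. A normalized count is the number of reads on a gene divided by the authors' factor for library size. The groups overlapped, with U0126 above DMSO in replicate 1 and below it in replicates 2 and 3. The means were 3902 ± 309 in U0126 and 4206 ± 428 in DMSO embryos (SD, n = 3 each). The log2 fold change was -0.11, with a 95% interval of -0.37 to 0.16, and limma's adjusted p was 1.

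The single copies showed the same at 64 cells. KH.S816.1 was at 1509, 1340 and 1342 normalized counts in U0126 embryos, against 1280, 1664 and 1366 in DMSO embryos. For KH.S816.2 the counts were 1065, 828 and 935.3 with U0126, against 1082, 1116 and 1009 with DMSO. KH.S816.2 had a lower count with U0126 in all 3 replicate numbers, but its groups still overlapped. KH.S816.1 was lower with U0126 in 2 of the 3. KH.S816.4 was at 538.1, 403.2 and 502.8 normalized counts with U0126, against 496.6, 518 and 523.4 with DMSO. On the other scaffold, KH.L59.1 was at 598.9, 573.8 and 625.6 with U0126, against 537.8, 764.8 and 616 with DMSO. Replicate 2 of DMSO was the highest library for this copy and replicate 1 of DMSO the lowest, so all U0126 values lay inside the DMSO range. KH.L59.12 was at 520.3, 472.7 and 451.1 with U0126, against 525.6, 635.1 and 481.7 with DMSO. The groups of each of the 5 copies overlapped. The copies' log2 fold changes ran from -0.19 for KH.S816.2 to -0.03 for KH.S816.1, with a median of -0.10, against a median of 0.01 over all 10792 genes tested. KH.L59.12, like KH.S816.2, was lower with U0126 in all 3 pairs. By limma 0 of 5 copies were called and 0 had an unadjusted p under 0.05, where 0.0185% of the genes tested were called lower. With the replicate block in limma KH.S816.2 and KH.L59.12 had unadjusted p-values of 0.0106 and 0.0316, and adjusted p-values of 0.335 and 0.537. DESeq2 and edgeR called 0 of the 5 as well, where they called 0.12% and 0.00927% of genes lower. The lowest bound of any copy's interval was a log2 fold change of -0.52, for KH.L59.12.

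At the 112-cell stage every copy was lower in every U0126 library than in every DMSO library, at about 0.523 of the DMSO level for the sum. Of all genes tested, 9.86% had U0126 libraries that all lay below the DMSO libraries at this stage. The summed level was 3058, 2852 and 2663 normalized counts in U0126 replicates 1 to 3, against 5047, 4766 and 6770 in the DMSO replicates. The means were 2858 ± 198 in U0126 and 5527 ± 1085 in DMSO embryos (SD, n = 3 each). Most of the spread in DMSO came from replicate 3, the library that stands apart, which was the highest of the 6. The log2 fold change was -0.94 (SE 0.17), with a 95% interval of -1.34 to -0.53. It missed the threshold in the 6-library fit, where limma's adjusted p was 0.0939.

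**Figure D1:**
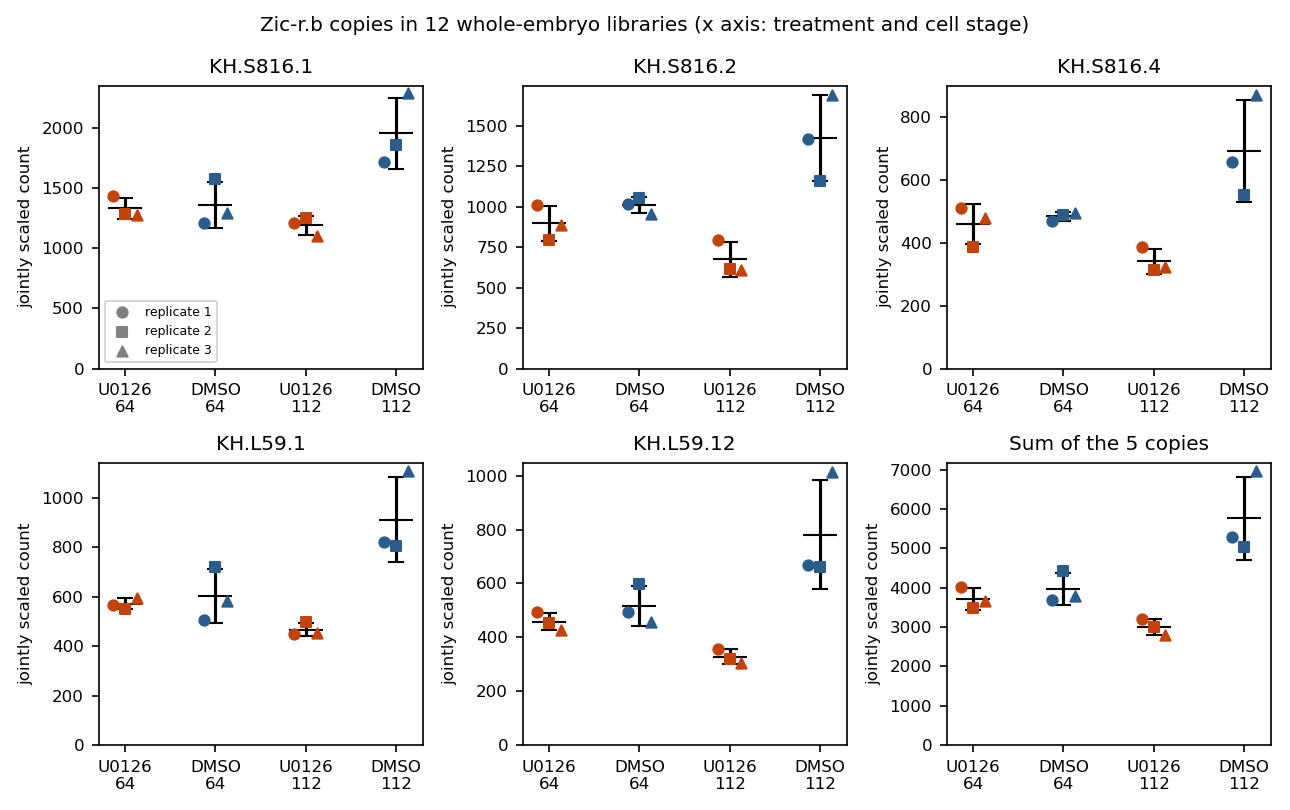
Jointly scaled counts (y axis, linear from 0) of the 5 Zic-r.b copies and their sum in all 12 libraries, by treatment and cell stage (x axis). Orange points are U0126 and blue points DMSO libraries, the symbol gives the replicate number, and the bars show the mean and SD of 3 libraries. In each panel the U0126 libraries at 112 cells lie below all 3 DMSO libraries at 112 cells, and the groups overlap at 64 cells.

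KH.S816.1 was at 1157, 1188 and 1052 normalized counts in U0126 embryos at 112 cells, against 1639, 1756 and 2220 in DMSO embryos. This copy had the smallest log2 fold change of the family, -0.71 (SE 0.16, adjusted p = 0.186 by limma). KH.S816.2 was at 761.6, 588.7 and 579.5 with U0126, against 1358, 1099 and 1643 with DMSO (log2 fold change -1.08 with SE 0.20, adjusted p = 0.099 by limma). For KH.S816.4 the counts were 369.2, 297.3 and 308.6 with U0126, against 628, 522.2 and 845 with DMSO (log2 fold change -1.01 with SE 0.22, adjusted p = 0.162 by limma). DMSO replicate 3 was again the highest library for all 3 of these copies.

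The KH.L59 copies differed by as much. KH.L59.1 was at 428.6, 472.3 and 433.3 normalized counts with U0126, against 784.8, 762.4 and 1077 with DMSO (log2 fold change -0.96 with SE 0.18, adjusted p = 0.102 by limma). KH.L59.12 was at 342.1, 305.3 and 290.3 with U0126, against 637.7, 625.8 and 984.2 with DMSO. This copy had the largest log2 fold change of the family, -1.23 (SE 0.22, adjusted p = 0.0773 by limma).

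The U0126 difference at 112 cells was present within each replicate number. The summed level differed by a log2 value of -0.72 in replicate 1, -0.74 in replicate 2 and -1.35 in replicate 3, and each copy was lower in 3 of 3 pairs. Over the copies the median log2 fold change was -1.01, against -0.00 over all 11315 genes tested, and 183 to 371 of those genes had a lower estimate than a given copy. By limma 0 of 5 copies were called, although all 5 had a negative estimate with an unadjusted p under 0.05, as 2.64% of the genes tested had. Of all genes tested, 0.53% were called lower. EdgeR with TMM normalization also called 0 of 5, where 0.539% of genes were called lower, with adjusted p of 0.0649 to 0.182.

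Whether the family passed the threshold at 112 cells depended on the fit, and for the sum most fits missed it. In the limma fit of all 12 libraries 5 of 5 copies were called lower, where 0.773% of genes were, and the sum had a log2 fold change of -0.93 with an adjusted p of 0.0068. DESeq2 on the recovered reads called 5 of 5 lower too, where 1.25% of genes were, with an adjusted p of 0.000368 for the sum. Without DMSO replicate 3 the sum was at a log2 fold change of -0.78 and passed (limma adjusted p = 0.0204), as did 2 of 5 copies, KH.L59.1 (0.0403) and KH.L59.12 (0.0297), where 0.559% of genes were called lower. Over 17 alternatives the adjusted p of the sum ran from 0.000368 to 0.466, and the sign was negative in each. The sum passed in 3 of the 17, the fits just named. The others missed, among them those with the replicate block in limma (adjusted p = 0.215) and in edgeR (adjusted p = 0.224). With library totals alone as the scaling, the median of all genes moved to -0.14 at 112 cells, and the sum lay -0.93 from that median. A change of scaling moves all genes nearly alike, so this gap could hardly differ from that in the main scaling. It is no separate evidence for the difference.

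**Figure D2:**
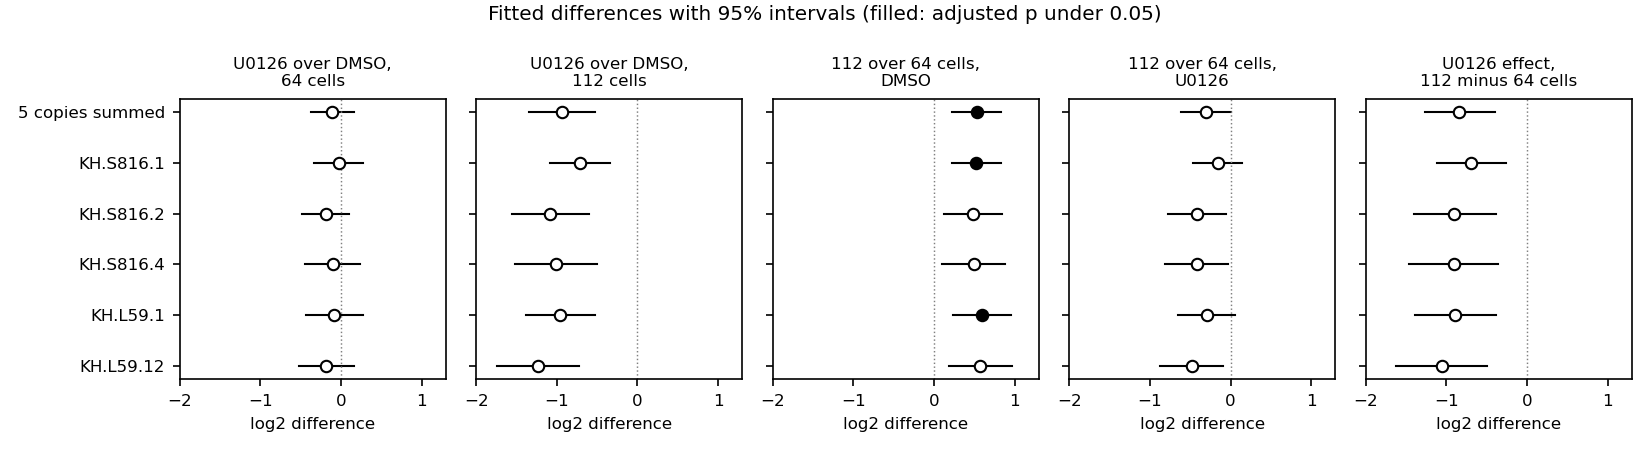
Fitted log2 differences (x axis) of the summed family and the 5 copies (rows) in 5 comparisons, with lines for the 95% intervals of limma and filled points for an adjusted p under 0.05. All 6 estimates at 112 cells lie between -0.71 and -1.23 with open points, and the filled points are the sum, KH.S816.1 and KH.L59.1 in the stage comparison of DMSO embryos.

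Between 64 and 112 cells the summed level rose in DMSO embryos, while in U0126 embryos the estimate was lower at 112 cells and missed the threshold. For this comparison the recovered reads of all 12 libraries were scaled together, because the authors normalized each stage's table separately. On this joint scale the sum averaged 3717 ± 274 in U0126 and 3971 ± 401 in DMSO embryos at 64 cells. At 112 cells it averaged 2997 ± 206 in U0126 and 5764 ± 1054 in DMSO embryos (SD, n = 3 each). All 5 copies had the same order of mean levels, with DMSO at 112 cells highest, then DMSO at 64 cells, U0126 at 64 cells and U0126 at 112 cells. In that order the middle groups, U0126 and DMSO at 64 cells, overlapped for every copy.

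The rise in DMSO embryos had a log2 fold change of 0.53 (SE 0.14, 95% interval 0.22 to 0.83, limma adjusted p = 0.0425), though the call was lost with the other scalings tried in limma (adjusted p = 0.0543 with TMM and 0.077 with library totals). The libraries at 112 cells were at 5286, 5033 and 6971 jointly scaled counts, against 3696, 4431 and 3786 at 64 cells. The groups did not overlap for the sum or any copy, nor, in this direction, for 12.2% of all genes. The within-number log2 differences of the sum were 0.52, 0.18 and 0.88. KH.S816.1 rose by a log2 value of 0.52 (limma adjusted p = 0.042) and KH.L59.1 by 0.59 (0.0465), also without a call under both other scalings. KH.S816.2, KH.S816.4 and KH.L59.12 had positive estimates of 0.48, 0.49 and 0.57 that missed the threshold. Without DMSO replicate 3 at 112 cells KH.S816.4 was at 0.31 and KH.L59.12 at 0.37. By limma 2 of 5 copies were thus called higher, where 5.38% of all 11650 genes were. With the replicate number as a block 4 of 5 were, where 9.9% of genes were: KH.S816.2 (adjusted p = 0.0423) and KH.S816.4 (0.0443) were added, and KH.L59.12 was at 0.0586. DESeq2 also called 4 of 5, where 7.06% of genes were, but not the same 4. With it KH.L59.12 passed (adjusted p = 0.0286) and KH.S816.4 did not (adjusted p = 0.0618). EdgeR called 0 of 5, where 5.35% of genes were, and 4 of 5 with the replicate block, where 9.74% were.

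These stage calls were close to the threshold. The sum kept its call in 1 of the 12 fits that left out 1 library, the one without DMSO replicate 2 at 112 cells (adjusted p = 0.0398). Over the 12 fits the adjusted p was 0.0398 to 0.148. Without DMSO replicate 3 at 112 cells the log2 fold change was 0.38 (adjusted p = 0.0616), and 0 of 5 copies were called, where 5.07% of genes were. KH.S816.1 kept its call in 2 of the 12 fits and KH.L59.1 in 1. Stage coincides with the deposited table, and a difference in collection or sequencing between the tables cannot be told apart from it.

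In U0126 embryos the copies had lower estimates at 112 cells than at 64 cells, but 0 of 5 were called by limma, edgeR or DESeq2, where these called 1.89%, 1.76% and 3.39% of genes lower. The sum was at 3203, 2996 and 2792 jointly scaled counts at 112 cells, against 4013, 3472 and 3666 at 64 cells. These groups did not overlap, nor did those of 4 copies (KH.S816.2 overlapped), while 12.3% of all genes separated in this direction. For KH.S816.4 the highest library at 112 cells was at 386.7 and the lowest at 64 cells at 387, nearly a tie. For KH.S816.2 these were at 797.7 and 794.8. All 3 replicate numbers had a lower sum at 112 cells. The log2 fold change was -0.31 (SE 0.14, adjusted p = 0.299 by limma). KH.L59.12 had the most negative estimate, -0.48, and KH.S816.1 the least, -0.16. By limma 3 of the 5 copies had a negative estimate with an unadjusted p under 0.05, as 7.44% of all genes had. Without DMSO replicate 3 at 112 cells, which is in neither group of this comparison but in the fit, KH.L59.12 passed (adjusted p = 0.033), as 1 of 5 copies, where 4.42% of genes were called lower.

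The change of the U0126 difference from 64 to 112 cells was tested directly as an interaction. The sum had a difference of -0.84 on the log2 scale (SE 0.20, 95% interval -1.27 to -0.40, limma adjusted p = 0.357). The copies ran from -0.69 for KH.S816.1 to -1.06 for KH.L59.12, with a median of -0.90. Their intervals lay below 0 and all 5 had an unadjusted p under 0.05, as did 1.48% of all genes tested, counting negative estimates, yet 0 of 5 were called, where 0.146% of genes were called more negative. DESeq2 called 1 of 5, KH.L59.12 (adjusted p = 0.042), and the sum (0.0214), where 0.361% of genes were called. A dependence of the family's response on stage thus did not pass the main test. U0126 was added at the 32-cell stage in both cases, so stage cannot be told apart from the time since it was added. This interaction, the difference at 112 cells and the stage change in DMSO embryos share the DMSO libraries at 112 cells.

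**Figure D3:**
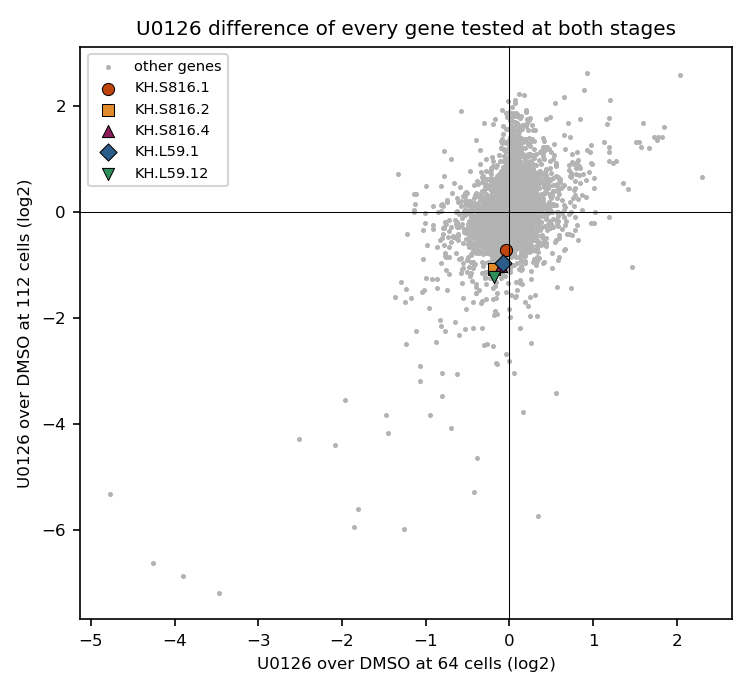
Log2 difference of U0126 over DMSO at 64 cells (x axis) and at 112 cells (y axis) for the 10704 genes tested at both stages, in separate libraries, with the Zic-r.b copies as coloured symbols. The copies lie together, near 0 at 64 cells (-0.19 to -0.03) and between -1.23 and -0.71 at 112 cells, where 183 to 371 of all 11315 genes tested at 112 cells had a lower estimate than a given copy.

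The copies followed each other closely over the 12 libraries. Pearson's r between copies on the log2 jointly scaled counts was 0.875 to 0.984 over the 10 pairs, which share libraries and possibly reads. The ratio of KH.S816.2 to KH.S816.4 varied least, from 1.86 to 2.18, with an SD of 0.080 on the log2 scale. By contrast KH.S816.1 over KH.L59.12 ran from 2.26 to 3.89, with an SD of 0.230, the widest of the 10 pairs. That ratio had a mean log2 value of 1.86 in U0126 and 1.34 in DMSO embryos at 112 cells, and of 1.54 in U0126 and 1.39 in DMSO embryos at 64 cells.

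At 112 cells the shares of KH.S816.1 and KH.L59.12 in the family's reads separated by treatment. KH.S816.1 supplied 37.8%, 41.7% and 39.5% of the family's reads in U0126 replicates 1 to 3, against 32.5%, 36.9% and 32.8% in the DMSO replicates. Its share was thus higher in every U0126 library than in every DMSO library, and the paired gaps were 5.35, 4.81 and 6.68 percentage points. KH.L59.12 supplied 11.2%, 10.7% and 10.9% with U0126, against 12.6%, 13.1% and 14.5% with DMSO, again without overlap. At 64 cells the shares of both copies overlapped between the treatments, although KH.S816.1 was higher and KH.L59.12 lower with U0126 in all 3 pairs. The shares of KH.S816.2, KH.S816.4 and KH.L59.1 overlapped between the treatments at both stages. Within replicate numbers, the share of KH.S816.2 was lower with U0126 in all 3 pairs at both stages, with differences of -2.41 and -2.51 points in replicates 2 and 3 at 112 cells, and of -2.43, -0.86 and -0.99 at 64 cells. That of KH.S816.4 was lower in all 3 pairs at 112 cells (-0.37, -0.53 and -0.90 points). These differences in share were not tested, and a share of reads is not a share of transcripts where copies share reads or differ in length. The shares of a library add up to the whole, so the differences of the copies are not separate observations.

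**Figure D4:**
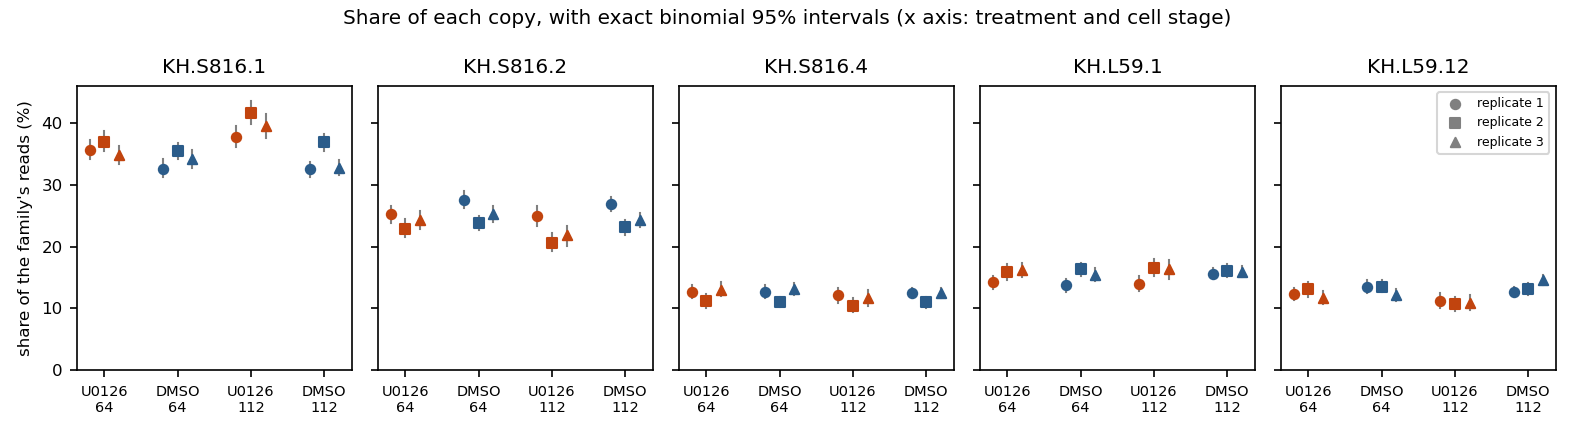
Share of the family's reads (y axis, percent) that fell on each copy in the 12 libraries, by treatment and cell stage (x axis), with exact binomial 95% intervals that cover counting error only. Orange points are U0126 and blue points DMSO libraries. KH.S816.1 lies higher and KH.L59.12 lower in all 3 U0126 libraries at 112 cells than in the DMSO libraries.

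For 4 copies the same replicate number stood at one end of the shares in all groups. KH.S816.1 had its highest share in replicate 2 of all 4 groups (37% and 35.4% in U0126 and DMSO embryos at 64 cells, 41.7% and 36.9% at 112 cells). KH.S816.4 had its lowest share in the same replicate of all 4 groups, at 10.4% to 11.1%. KH.S816.2 was also lowest in replicate 2 of all 4 groups (20.6% to 23.8%), and KH.L59.1 was lowest in replicate 1 (13.7% to 15.5%). Exact binomial intervals for KH.S816.1 at 112 cells with DMSO were 35.5% to 38.2% in replicate 2 and 31.3% to 33.7% in replicate 1; these intervals cover counting error only, and the spread between separate samples was not tested.

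The genes most like the family over the 12 libraries were named by Pearson's r to the summed level, among 11645 other genes. They were KH.L41.53 (r = 0.955), KH.L71.9 (0.952), KH.C2.322 (0.931), KH.C9.289 (0.930) and KH.C1.902 (0.929), against a median r of 0.018. KH.L41.53 averaged 207 ± 46.4 jointly scaled counts in U0126 and 517 ± 115 in DMSO embryos at 112 cells, and 290 ± 30.7 in U0126 and 321 ± 27.8 in DMSO embryos at 64 cells (SD, n = 3 each). Others had levels less like the family's. KH.C9.289 was already at 857 ± 48.9 in U0126 against 1259 ± 107 in DMSO embryos at 64 cells. KH.C2.322 was at 1302 ± 55.2 in U0126 and 1665 ± 91 in DMSO embryos at 112 cells. These genes were picked for the highest r, so a high r is no separate evidence. The tables used here give these models no gene name.

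Of the other models whose identifiers share a scaffold with the copies, KH.S816.3 is the 1 on KH.S816 and 10 are on KH.L59. KH.S816.3 did not exceed 15.7 jointly scaled counts in any library and was not tested. On KH.L59, 9 of the 10 were tested at 112 cells, with log2 fold changes of -1.10 to 0.69, and 0 were called in any of the comparisons. At 112 cells limma also called 0 of the 5 Zic-r.b copies. The lowest estimate was that of KH.L59.9 (adjusted p = 0.578 by limma) and the highest that of KH.L59.11. KH.L59.9 was at 26.3, 28.2 and 25.9 jointly scaled counts with U0126 at 112 cells, against 39.8, 57.3 and 88.0 with DMSO.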

How the data were processed

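The 12 whole-embryo libraries form 4 groups of 3. Per the file headers, the authors deposited normalized counts (a signal, divided by a size factor) and regularized log2 values, in 1 table per stage with 15284 models. TopHat2 (2.9.8b) and DESeq (1.8.1) are named in the submitters' processing notes. Not given in the sources used here: the read counter, strand setting, filters and genome build. All values (100%) were whole multiples of a library's smallest value within 0.01, so reads were recovered.

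The main test was limma 3.58.1 (R 4.3.3) with a mean-variance trend on log2(normalized count + 1), over genes with at least 10 in at least 3 libraries of the fit. Benjamini-Hochberg adjustment ran over all genes tested, with a threshold of 0.05. Fold changes are on that scale. The U0126 comparisons used 6 libraries each, and the others all 12, jointly scaled by median-of-ratios factors. For the sum, the 5 rows were replaced by 1. EdgeR 4.0.16 and DESeq2 1.42.0 on recovered reads, other scalings, filters and pseudocounts, and leaving out each library were alternatives. The fitting was tested on simulated data. These data were drawn without an effect of replicate number, so the test did not cover likeness between same-number libraries. Replicate numbers were taken to pair libraries, from the data, but only for within-number differences and the replicate block. The main tests did not use this pairing. Deviations from group means correlated at 0.380 to 0.833 for the 18 same-number pairs and -0.527 to -0.034 for others, over 11650 genes. Because deviations cancel out within a group, the negative values are not separate evidence of pairing. Named genes were the 5 members and the 5 genes most correlated with their sum. Members, lists and tests were chosen with earlier results of these data known. A planned pathway list was not used, because the tables used here pair no names with these identifiers, and no sequence of the copies was used. Intervals for shares cover counting error only.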

Additional observations from a re-analysis of the deposited data

Results flagged for a closer look

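The direction of the stage change differed between the treatments in every replicate number, for the sum and for each of the 5 copies: all 3 DMSO pairs were higher and all 3 U0126 pairs lower at 112 cells than at 64 cells. Opposite direction was not itself tested, and the lower level in U0126 embryos at 112 cells was not called (limma adjusted p = 0.299 for the sum). The interaction tests only whether the stage changes differ between the treatments. Its log2 values were -0.84 for the sum, -0.69 for KH.S816.1, -0.90 for KH.S816.2, -0.91 for KH.S816.4, -0.89 for KH.L59.1 and -1.06 for KH.L59.12. These did not pass limma's adjusted threshold (0.357 for the sum, 0.368 to 0.732 for the copies). Without DMSO replicate 3 at 112 cells the interaction of the sum was -0.69 (adjusted p = 0.194). The within-number stage differences of the sum were -0.33, -0.21 and -0.39 in U0126 embryos and 0.52, 0.18 and 0.88 in DMSO embryos. Some differences of single copies were small: -0.04 for KH.S816.1 in U0126 replicate 2, and 0.14 for KH.S816.2 and KH.L59.12 in DMSO replicate 2. The share of all genes with such opposite directions was not counted. The copies may share reads, so they are not separate observations of this pattern.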

How the results depend on the processing

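For the summed family, 46 of 52 alternatives other than leaving out a library kept the direction and the side of the threshold. Of the rest, 3 lost a call and 3 gained one, and the direction was kept in all 52. Only the stage change in DMSO embryos was called for the sum in the main fit. Most of the 46 were thus results without a call that stayed so. Of the 48 fits with 1 library left out, 36 kept direction and side, 11 lost a call and 1 gained one. At 112 cells the U0126 log2 fold change of the sum was -0.96 by DESeq2 and -0.93 in the fit of all 12 libraries, both past the threshold. The stage change in DMSO embryos lost its call at 0.49 with TMM-scaled CPM, 0.55 with library totals and 0.51 with edgeR. DESeq2 placed the interaction past the threshold at -0.85. With 1 library left out, the sum ran from -0.17 to -0.02 (U0126 at 64 cells), -1.03 to -0.78 (U0126 at 112 cells), 0.38 to 0.62 (stage, DMSO), -0.36 to -0.25 (stage, U0126) and -0.93 to -0.69 (interaction). The replicate block left the estimates as they were; the limma adjusted p of the sum at 112 cells became 0.215 and that of the stage change in DMSO embryos 0.0346, and in limma it changed no call other than those of KH.S816.2 and KH.S816.4 between the stages in DMSO embryos. In edgeR it gained that stage call for the sum (0.51, adjusted p = 0.0415), KH.S816.1, KH.S816.2, KH.S816.4 and KH.L59.1, and changed no other call. Single copies changed sign only at 64 cells when a library of replicate 2 was left out: KH.S816.1 to 0.08, KH.L59.1 to 0.06 and KH.S816.4 to 0.02, with lowest values of -0.11, -0.20 and -0.19. Of 510 settings tried on single copies these were the 3 that changed sign. The authors' regularized log2 values gave a median of -0.60 for the copies at 112 cells. The cause of these changes was not tested. Each copy had at least 270 reads in every library, and with 3 libraries a group the tests rest on the spread among few libraries.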

Other observations

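Some models on the scaffold of the KH.L59 copies differed by replicate number more than by treatment; they were chosen after their values were seen. At 112 cells KH.L59.3 was at 1.05, 65.8 and 104 jointly scaled counts in U0126 replicates 1 to 3, against 0.846, 128 and 121 in the DMSO replicates. KH.L59.10 was at 0, 16.7 and 41.7 with U0126, against 2.54, 30.7 and 55.3 with DMSO. Both had their lowest value in replicate 1 of each treatment. KH.L59.11 was highest in replicate 2 of all 4 groups, at 320 and 295 in U0126 and DMSO embryos at 64 cells and 391 and 335 at 112 cells, against 15.8 to 179 in the other replicates.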
